A study of Mus musculus with 2 samples.

Results

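The cells described here are fibroblasts of the newborn mouse lacrimal gland in which transcripts of Ly6a, Pi16 and Dpt outnumbered those of Kera, Col15a1 and Lect1. They were 78 of the 183 mesenchyme cells found at postnatal day 4 (42.6%, exact binomial 95% interval 35.4 to 50.1), and 78 of the 1124 barcodes of the whole series. A barcode was kept with at least 200 genes and with haemoglobin genes under 50% of its unique molecular identifiers (UMIs, one per captured transcript). Mesenchyme was called where Col1a1, Col1a2, Col3a1, Dcn, Lum and Pdgfra together held at least 0.3% of UMIs and outnumbered 8 epithelial genes. Cells with more than 2 mural, 1 endothelial or 2 macrophage marker UMIs were left out. Mesenchyme cells with more UMIs of Ly6a, Pi16 and Dpt than of Kera, Col15a1 and Lect1 form the Ly6a set. The opposite side, 88 cells, is the Kera set, and 17 cells had equal UMIs of both sides.

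Many organs hold a fibroblast state that lies in the loose outer sheath of vessels, ducts and gland lobes and carries Pi16, Dpt, Cd34 and, in the mouse, Ly6a. Such cells make elastic microfibrils and fibrillar collagen and are regarded as a reservoir from which other fibroblasts arise, while other fibroblasts of a gland sit close to its epithelium. The lacrimal gland, which secretes the watery part of tears, branches before birth and begins to make secretory product after it.

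The mice were wild type and of the outbred CD1 strain, and their lacrimal glands were taken whole at embryonic day 16 (E16) and postnatal day 4 (P4), digested with Liberase TM and DNaseI, and profiled as single cells. Each stage is 1 library made from pooled glands, and the number of animals pooled was not stated. With 1 library a stage there is no replicate, so no test between groups was possible, and stage and library cannot be told apart. All intervals cover counting error only. The libraries shared 0 of their cell barcodes.

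Of the P4 library's 687 barcodes, 394 were kept, and they held 70 epithelial-marker, 21 endothelial-marker, 56 macrophage-marker and 7 mural-marker cells besides the mesenchyme. The E16 library had 437 barcodes and 97 mesenchyme cells by the same rule. The 78 members had a median of 5375.5 UMIs (855 to 10077) and the Kera set 4083 (1367 to 12870), against 6188 in the E16 mesenchyme. Summed over cells, the Ly6a set held 407316 UMIs, the Kera set 373200 and the E16 mesenchyme 636478. Levels below are given as CPM, a gene's UMIs per 1000000 UMIs of a set, both summed over its cells. A fold is the ratio of 2 such levels, with its exact 95% counting interval. A gene was measured in a comparison when both sets together held at least 30 of its UMIs.

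Promoters were looked up for the 8 marker genes of the set, and the 3 shown are those in which 1 of the 2 motifs searched was found. They run from 250 bases before to 50 bases after the start site in RefSeq (GRCm38.p6), 5′ to 3′ on the gene's strand. Capitals mark TATAAA, letters also found in TATA boxes, in Dpt (chr1:164796413-164796712, plus strand) and Ly6c1 (chr15:75048788-75049087, minus strand), and TGANTCA, the letters bound by AP-1, in Tnfaip6 (chr2:52037863-52038162, plus strand).
Dpt: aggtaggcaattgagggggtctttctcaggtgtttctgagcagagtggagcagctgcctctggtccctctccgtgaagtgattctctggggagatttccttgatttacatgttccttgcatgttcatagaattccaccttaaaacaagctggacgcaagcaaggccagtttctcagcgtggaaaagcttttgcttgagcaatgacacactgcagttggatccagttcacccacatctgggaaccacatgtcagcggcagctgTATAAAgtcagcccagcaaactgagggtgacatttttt
Ly6c1: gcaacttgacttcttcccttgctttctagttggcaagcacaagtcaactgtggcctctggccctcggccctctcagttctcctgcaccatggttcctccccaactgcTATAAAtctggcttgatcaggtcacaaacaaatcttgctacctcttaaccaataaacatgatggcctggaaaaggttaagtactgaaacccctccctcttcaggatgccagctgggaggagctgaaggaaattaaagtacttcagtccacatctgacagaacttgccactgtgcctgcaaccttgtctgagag
Tnfaip6: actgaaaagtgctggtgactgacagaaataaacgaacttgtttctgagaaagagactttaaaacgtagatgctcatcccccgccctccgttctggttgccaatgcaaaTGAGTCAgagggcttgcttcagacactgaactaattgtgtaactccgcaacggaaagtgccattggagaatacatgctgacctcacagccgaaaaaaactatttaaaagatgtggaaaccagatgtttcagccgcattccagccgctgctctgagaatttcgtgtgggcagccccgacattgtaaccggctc
Read on both strands, TATAAA is in 13.6% of all 32851 promoters of this length and TGANTCA in 7.81%. Promoters were matched for 5 of the 8 marker genes, Dpt, Pi16, Ly6c1, Tnfaip6 and Dpep1, with a second start site for Ly6c1. Of these 6 promoters, 2 hold TATAAA and 1 holds TGANTCA. The TATAAA of Dpt begins 12 bases after the annotated start site and that of Ly6c1 143 bases before it, and neither is the usual place of a TATA box, which is just ahead of the start. The TGANTCA of Tnfaip6 begins 142 bases before the start. Pi16, Dpep1 and the other Ly6c1 start site held neither motif. A match is a description of letters, not of binding. Ly6a, Mfap5 and Clec3b had no entry.

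Ly6a encodes Sca-1, a lipid-anchored surface protein (chr15:74994877-74998031), Pi16 a secreted peptidase inhibitor (chr17:29317680-29330593) and Dpt dermatopontin, a small matrix protein that binds decorin (chr1:164796644-164824266; gene bodies, GRCm38). These values chose the cells and are given as a description. Among the 78 members, Dpt was detected in 77 cells, Ly6a in 70 and Pi16 in 44. All 3 genes were present in 43 cells, Ly6a with Dpt in 26, Dpt alone in 7, Ly6a alone in 1 and Pi16 with Dpt in 1. Per-cell Ly6a ran from 0 over a median of 7 to 62 UMIs, Dpt from 0 over 6.5 to 16 and Pi16 from 0 over 1 to 29. The rule fixed in part how often each of these genes was seen.

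The difference between the sides had a median of 17 UMIs and ran from 1 to 88, and 57 members had a difference of at least 10. No UMI of Kera, Col15a1 or Lect1 was found in 41 members, and 37 had at least 1. In the Kera set, 29 of the 88 cells held a UMI of Ly6a, Pi16 or Dpt. Just inside the rule were 7 members with a difference of 1 UMI, and just outside were the 17 cells of equal UMIs, of which 12 held none of the 6 genes. Mfap5 stood at 2242 CPM in those 7 members and 1414 CPM in those 17 cells, Clec3b at 1359 and 797 CPM, and Dpep1 at 442 and 130 CPM. Tnfaip6 had 17 UMIs in those 7 members, but 16 of them lay in 1 cell, and without it the other 6 stood at 48.7 CPM against 48.8 in the 17 cells. Mfap4, a glycoprotein of elastic fibres, stood at 1154 CPM in the 17 cells, where 11 held it, and at 1041 CPM in the members as a whole. In the 7 members Mfap4 had 55 UMIs, 40 of them in 1 cell, and without it the other 6 stood at 610 CPM. Cells on both sides of the boundary therefore carried these genes, at levels below those of the whole set for Mfap5 and Clec3b. For Mfap4 the 17 cells were not below the whole set, while the level in the 7 members rested mostly on 1 cell. No doublet caller was run.

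**Figure D1:**
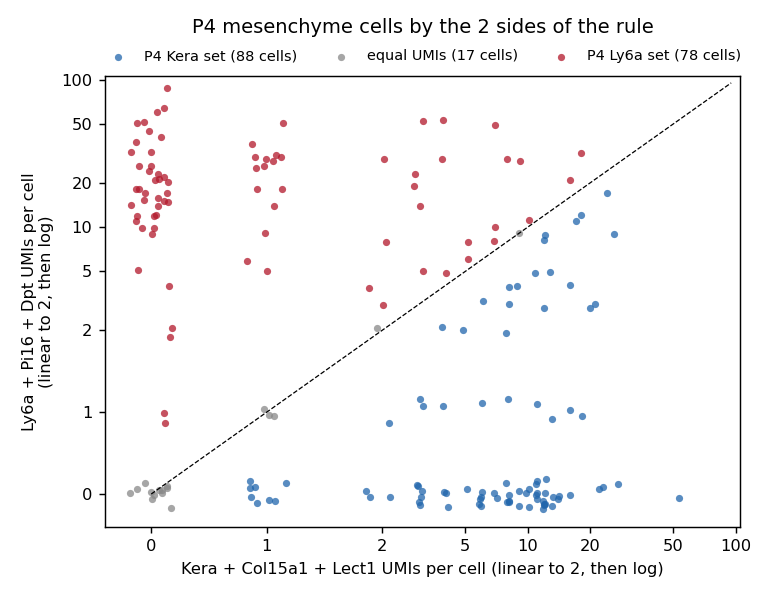
Each point is 1 of the 183 P4 mesenchyme cells, placed by its UMIs of Kera, Col15a1 and Lect1 (x) and of Ly6a, Pi16 and Dpt (y), both axes linear to 2 and logarithmic above, with a small random shift so that points do not hide each other and a dashed line of equality. The 78 members lie above the line, 41 of them at 0 on the x axis, and 12 of the 17 grey cells lie at the origin.

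The rule counts none of the other 5 marker genes given for these cells. These markers were chosen with earlier results of these data known, so their levels are a description and not an independent check. Mfap5, a protein of elastic microfibrils (chr6:122505845-122529290), was detected in 75 of 78 members, at a median of 24 UMIs and at most 104. It stood at 5485 CPM against 817 in the Kera set, a ratio of 6.71 (5.95 to 7.59). Clec3b, or tetranectin, which binds plasminogen (chr9:123150946-123157432), was also found in 75 members, with a median of 11 UMIs, and stood at 2214 against 686 CPM. Both genes were thus present in nearly every member and in about as many cells as Dpt. Ly6c1, another lipid-anchored Ly6 protein (chr15:75044018-75048830), stood at 567 against 48.2 CPM, 11.8-fold higher (7.28 to 20.2). Tnfaip6, or TSG-6, which binds hyaluronan (chr2:52038009-52056686), stood at 569.6 CPM against 163 CPM, and Dpep1, a membrane dipeptidase (chr8:123186242-123201812), at 459 against 121 CPM. Tnfaip6 was detected in 47 members, Dpep1 in 48 and Ly6c1 in 58, so these 3 genes, like Pi16, were not seen in every cell. All 5 markers were thus higher by level than in the Kera set, while Tnfaip6 and Dpep1 stood at a median of 1 UMI per member. Ly6c2, a close copy of Ly6c1, was at 0 UMIs, and the treatment of reads shared by Ly6 copies was not stated.

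The sets differ in depth, so the shares of cells with a UMI were also taken after thinning every cell to 2191 UMIs, which left 72 members and 79 Kera cells. Mfap5 was then present in 98.6% of members (unthinned 96.2%) and 51.9% of Kera cells (55.7%). Clec3b was in 93.1% and 48.1%, Ly6c1 in 61.1% and 3.80%, Tnfaip6 in 48.6% and 24.1%, and Dpep1 in 44.4% and 15.2%. Ly6c1 was also in 50% of 16 endothelial-marker cells, where Mfap5 was in 18.75%, Clec3b and Tnfaip6 each in 6.25% and Dpep1 in 0%. Cd34, a sialomucin of adventitial fibroblasts and endothelium, was in 68.1% and 39.2%. Free RNA gives a floor for such shares. In epithelial-marker cells, which should lack these genes, the thinned share was 8.70% for Mfap5 and 2.17% for Clec3b and for Ly6a. It was 0% for Ly6c1, Tnfaip6 and Dpep1. These shares are over the 46 cells with at least 2191 UMIs, while all 70 epithelial-marker cells had a median of 3371 UMIs. The Kera set's shares of Mfap5, Clec3b, Tnfaip6 and Dpep1 were above those of epithelial-marker cells. Most of the Kera set's UMIs of these genes lay in its 29 cells with a UMI of Ly6a, Pi16 or Dpt. The part of free RNA in these shares was not tested.

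**Figure D2:**
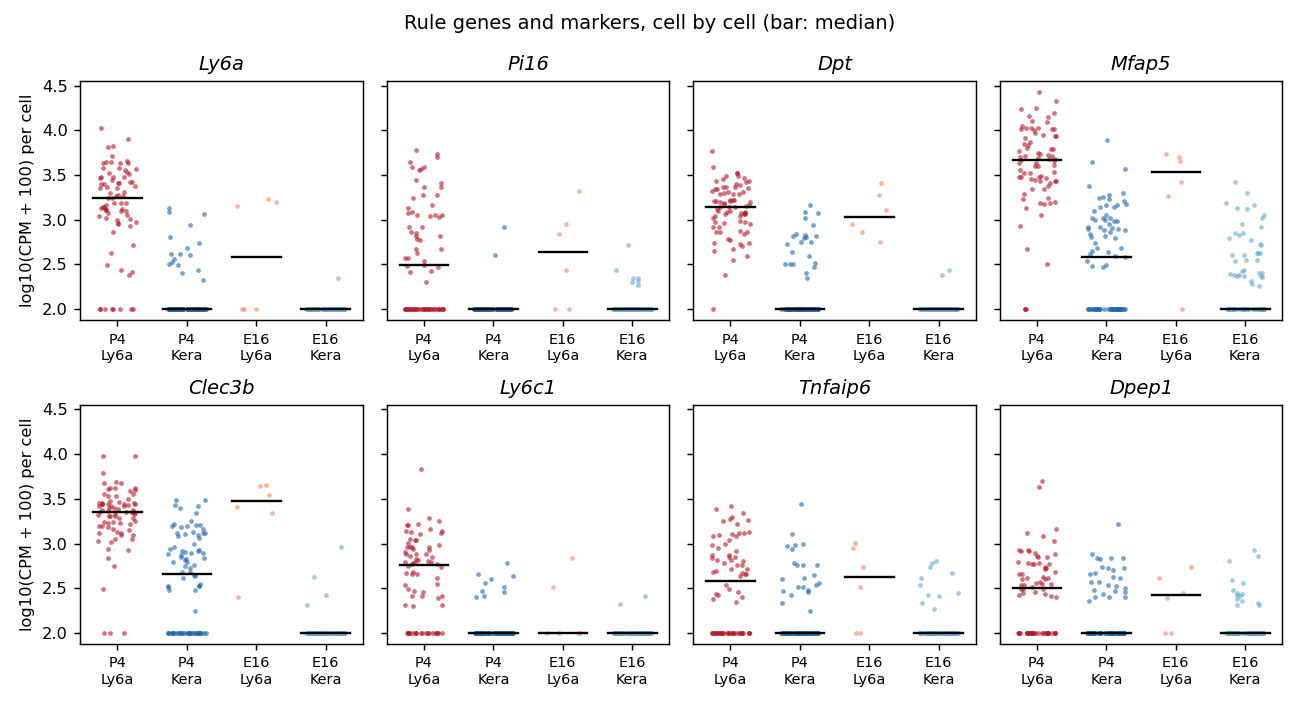
Each point is 1 cell, with its level on the y axis as log10 of CPM plus 100, in the P4 Ly6a set (78 cells), the P4 Kera set (88), the E16 Ly6a side (6) and the E16 Kera side (81); bars are medians, and a cell without a UMI lies at 2. Mfap5, Clec3b and Dpt form a single high band in the P4 Ly6a set, while Pi16, Tnfaip6 and Dpep1 spread from 0 upward.

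Leaving 1 rule gene out of the choice shows how far the gene itself made the set. With members chosen without Ly6a (67 cells), Ly6a was still higher in the Ly6a set than in the Kera set by 2.67 on the log2 scale, against 4.05 with it. Chosen without Pi16 (76 cells), Pi16 was higher by 5.63 against 6.59, and chosen without Dpt (63 cells), Dpt was higher by 2.61 against 2.90. Each of the 3 genes was thus higher in cells picked by the other 2.

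Markers of other cell types were counted in the members. The rule itself capped Rgs5, Myh11, Cnn1, Pecam1, Cdh5, C1qa, C1qb and Ptprc and required the mesenchyme sum to exceed Epcam, Cdh1, Krt8, Krt18, Krt14, Krt15, Cldn3 and Cldn7, so low mural, endothelial, macrophage and epithelial sums are in large part fixed by the choice of cells. Of 7 adipocyte markers, 0 were detected, and of 7 mesothelial markers 1 was, with 3 UMIs. The 11 macrophage markers summed to 34 UMIs (83.5 CPM, at most 2 UMIs in a cell) against 28882 CPM in macrophage-marker cells, with Ptprc at 0. The 10 endothelial markers summed to 295 CPM, with Kdr and Emcn at 0, against 9035 CPM in endothelial-marker cells. The 11 mural markers summed to 228 CPM, with Rgs5, Myh11, Cnn1 and Higd1b at 0. The 12 epithelial markers came to 91 UMIs, of which 25 lay in 1 cell. RNA of secretory epithelium, a list of 8 genes led by the Dcpp family, was found in every member (1309 CPM, 1 to 62 UMIs a cell) and in every Kera cell (1120 CPM), and erythroid RNA stood at 2205 and 2307 CPM. These 2 kinds of transcript were at similar levels in both fibroblast sets. The glial list differed, with 29 UMIs in the members and 440 in the Kera set, but 404 of the latter lay in 1 cell.

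Within P4, the Ly6a set was set against the Kera set. Since the rule drew its cells from this contrast, all values are descriptions. Over the 3688 genes measured, 272 (7.38%) were at least 2-fold higher in the Ly6a set and 339 (9.19%) at least 2-fold lower, and nothing is read from these shares. A count of genes by fold alone was also touched by single cells: the 2 genes Golm1 and Phf20, among the first 5 on the lower side, had 88.3% and 77.6% of their Kera-set UMIs in 1 cell. Without the top cell of each gene in each set, 388 rather than 611 genes were at least 2-fold apart. Genes are therefore named below from a ranking made without those cells, which was chosen after the values were seen, and their values are given over all cells.

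Many of the genes that led in the Ly6a set encode secreted or surface proteins. Cthrc1, a secreted collagen-triple-helix protein, had 747 UMIs in 68 members and 34 UMIs in 16 Kera cells, 20.1-fold higher (14.3 to 29.3). Mfap4 had 424 UMIs in 43 members against 19 in 16 Kera cells, 20.4-fold higher (12.9 to 34.3), at a level that the 17 cells of equal UMIs shared. Cthrc1 was thus near general among the members and Mfap4 present in about as many as Pi16. Gap43, a growth-associated protein best known from axons, had 118 UMIs in 26 members, 43 of them in 1 cell, against 2 UMIs in 1 Kera cell. Its ratio was 54.1 (14.6 to 452), and 22.9 without the top cells, with the Kera set at the floor of 3 UMIs. Sfrp4, a secreted Wnt antagonist, had 107 UMIs in 29 members against 2, a ratio of 49.0 (13.2 to 410.0). Akr1c18, a steroid dehydrogenase that breaks down progesterone, had 117 UMIs in only 17 members against 3, a ratio of 35.7 (11.9 to 176). These 3 genes were therefore detected in a minority of the members.

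Nov, a matricellular CCN protein, had 51 UMIs against 1 (ratio 46.7, 8.02 to 1881), and Wnt2, a Wnt ligand, 51 against 2 (ratio 23.4, 6.15 to 198). Rbp4, the plasma carrier of retinol, had 41 UMIs against 1. Olfml2b, a matrix protein of the olfactomedin family, had 110 UMIs in 42 members against 5 UMIs. Qpct, a glutaminyl cyclase, had 110 in 44 members against 6. Fndc1, a fibronectin-domain protein, had 103 UMIs in 48 members against 8, and Dpp4, a cell-surface dipeptidase, 72 in 37 members against 6. Efhd1 had 35 UMIs in 23 members against 4 UMIs in 1 Kera cell. Outside the mesenchyme, Cthrc1 also stood at 617 CPM in endothelial-marker cells against 1834 in the members, and Akr1c18 at 148 CPM in epithelial-marker cells against 287 in the members. Gap43 and Wnt2 were at 0 UMIs in epithelial-marker cells.

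**Figure D3:**
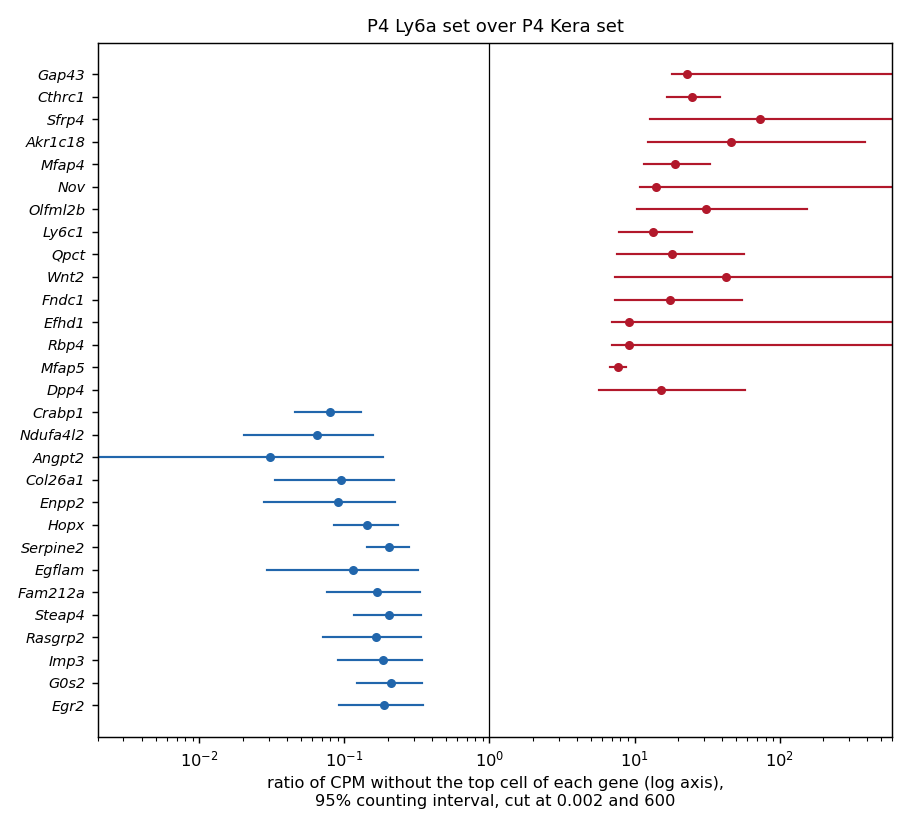
Ratio of CPM in the P4 Ly6a set over the P4 Kera set on a log axis, with 95% counting intervals, for 15 genes higher and 14 genes lower in the Ly6a set, each gene without its top cell in each set; intervals are cut at 0.002 and 600, and a set at 0 UMIs is placed at the floor of 3 UMIs. Intervals of the 15 genes at the top lie wholly above 1 and those of the 14 genes below lie wholly under 1, which their ranking fixes.

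Other genes were lower in the members than on the opposite side. Crabp1, a binding protein of retinoic acid, had 20 UMIs in 14 members and 227 UMIs in 56 Kera cells, 12.4-fold higher in the Kera set. Serpine2, a protease inhibitor of the matrix, had 52 UMIs in 25 members against 250 in 49 Kera cells, and Hopx, a homeodomain cofactor, 25 in 14 members against 134 in 59 Kera cells. After thinning, Crabp1 was found in 8.33% of members and 54.4% of Kera cells. Ndufa4l2, a mitochondrial protein induced by hypoxia, had 6 UMIs against 76, and Angpt2, a ligand of the Tie2 receptor, 2 against 34. Enpp2, or autotaxin, had 13 UMIs in 5 members against 60 in 33 Kera cells. Col26a1 had 9 UMIs against 63, Egflam 6 against 35 and Steap4, a metal reductase, 24 against 92. Between 2 and 25 members held a UMI of each gene named here. Whether counts as low as those of Angpt2 and Ndufa4l2 came from the members or from free RNA was not tested.

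Among matrix genes, fibrillar collagens and elastic fibres were higher in the Ly6a set. Of 14 fibrillar and associated collagen genes, 12 were measured, 6 were at least 2-fold higher and 0 lower, with a median log2 ratio of 1.04 against -0.13 over all genes. Col14a1, which decorates collagen fibrils, had 300 UMIs against 79 (3.48-fold), Col5a3 107 against 38 (2.58-fold) and Col5a1 204 against 76 (2.46-fold). Col3a1, with 7137 against 2591 UMIs, was 2.52-fold higher, though Col3a1, Col1a1 and Col1a2 are part of the mesenchyme sum that chose both sets. That sum held a median of 4.93% of UMIs in the members and 2.72% in the Kera set. Col6a1 was lower, at 0.72 of its Kera-set level. Of 18 elastic fibre genes, 15 were measured, 10 were at least 2-fold higher and 1 lower, with a median log2 ratio of 1.17. Besides Mfap4 and Mfap5 these were led by Efemp1, or fibulin-3 (314 against 59 UMIs, 4.88-fold), and Fbn1, the core fibrillin of microfibrils (394 against 101, 3.57-fold). Eln, elastin itself, had 147 against 75 UMIs (1.80-fold). Emilin1, an elastin-microfibril linker, went the other way with 23 against 73 UMIs.

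Enzymes that crosslink and trim the matrix were less uniform. Of 19 genes of collagen processing and crosslinking, 15 were measured, 5 were at least 2-fold higher and 1 lower (median log2 0.41). Loxl1, which crosslinks elastin, had 299 against 53 UMIs (5.17-fold) and Adamts2, which cleaves procollagen, 62 against 23. Plod1, a lysyl hydroxylase, was lower, with 21 against 45 UMIs. Of 11 small leucine-rich proteoglycans, 7 were measured, and Ogn (75 against 27 UMIs) and Aspn (263 against 107) were at least 2-fold higher. Kera belongs to the same family and to the rule. Of 16 basement membrane genes 13 were measured, with 1 higher and 2 lower. Sparc, a collagen-binding matricellular protein, had 3368 against 1496 UMIs (2.06-fold), Col18a1 21 against 61. Col15a1, the other lower gene, is in the rule.

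Proteases and inhibitors were split by gene. Of 18 matrix proteases 13 were measured, 4 were at least 2-fold higher and 0 lower, and the median log2 ratio was -0.02. The 4 were Dpp4, Htra3, a secreted serine protease (307 against 52 UMIs, 5.41-fold), Mmp23, a membrane metalloprotease (134 against 24, 5.12-fold), and Ctsl, a lysosomal cathepsin (352 against 79, 4.08-fold). Mmp19 stood at 14 against 20 UMIs. Among 13 protease inhibitors, 9 were measured, 5 were higher and 1, Serpine2, was lower. Without the rule gene Pi16 the median log2 ratio of the other 8 was 1.02. Timp2, an inhibitor of metalloproteases, had 311 against 102 UMIs (2.79-fold), Serping1, the inhibitor of complement C1, 403 against 140 (2.64-fold), and Serpinf1, or PEDF, 717 against 264 (2.49-fold).

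For signals to other cells, few genes of each list were measured. Of 19 chemokines and cytokines 9 were, with 3 higher and 1 lower (median log2 0.65). Ccl7, which attracts monocytes, had 491 UMIs in 49 members against 110 in 20 Kera cells, 4.09-fold higher, with 23.6% of the members' UMIs in 1 cell. Macrophage-marker cells held more Ccl7, 2485 CPM against 1205 in the members. Il33, an alarmin kept in the nucleus, had 33 UMIs in 13 members against 6, and Csf1, the macrophage growth factor, 32 against 10. Cxcl13, which attracts B cells, was lower, with 37 against 133 UMIs. Of 17 complement genes 8 were measured, 2 were higher and 1 lower. Those higher were Cd55 (51 against 14 UMIs) and Serping1, and the lower one was Cd59a (11 against 23). C1s1, a protease of the C1 complex, stood at 78 against 132. Hyaluronan genes included Tnfaip6, its receptor Cd44 (31 against 6 UMIs) and Ugdh, which makes its sugar precursor (228 against 74), and those were the 3 of 5 measured that were at least 2-fold higher.

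Wnt, retinoid and insulin-like growth factor genes each held members far apart in both directions. Of 29 Wnt pathway genes 9 were measured, 3 were higher (Sfrp4, Wnt2 and Sfrp2, the last 139 against 53 UMIs) and 3 lower. The lower ones were Rspo1, a Wnt agonist (9 against 33), Wisp1 (17 against 36) and Sfrp1 (50 against 99). Of 16 retinoid genes 7 were measured, with Rbp4 and Aldh1a3, which makes retinoic acid (34 against 2 UMIs), higher, and Crabp1 and Rarres1 (11 against 42) lower. Among 8 of 10 measured genes of the insulin-like growth factor list, Igfbp5 (127 against 18 UMIs, 6.46-fold), Igfbp6 (464 against 133, 3.20-fold) and Igf2, a fetal growth factor (723 against 269, 2.46-fold), were higher, and Igfbp7 was lower (700 against 1320). Of 29 genes of the BMP and TGF-beta pathways 9 were measured, with Postn, or periostin (1342 against 513 UMIs), and Fstl1 (563 against 227) higher, and Id1 (13 against 31) and Id3, a BMP target (194 against 456), lower. Of 14 imprinted growth genes 13 were measured, and Igf2 and H19 (1421 against 620 UMIs) were at least 2-fold higher while Mest was lower (139 against 281).

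Among 33 fibroblast transcription factors 15 were measured, 4 higher and 2 lower. Twist1 had 48 against 7 UMIs (6.28-fold), Creb5 60 against 12 (4.58-fold), Prrx1 179 against 64 (2.56-fold) and Klf2 695 against 265 (2.40-fold). Osr2, a zinc-finger factor, was lower with 82 against 162. Immediate early genes, which cell handling can also induce, were measured for 23 of 27, with 3 higher, 5 lower and a median log2 ratio of -0.59. Egr2 (15 against 63 UMIs), Ier3 (21 against 53), Nr4a1 (60 against 148) and Ier2 (523 against 1106) were lower, and Atf3 was higher (116 against 29). The part of handling in these differences was not tested. Glycolysis and hypoxia genes were measured for 10 of 22, with 1 higher and 1 lower. The lower one was Ldha, lactate dehydrogenase A (166 against 369 UMIs), and the higher one, Ero1l, had 86.7% of its UMIs in 1 member.

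A list of 50 genes tied to Pi16- or Dpp4-bearing adventitial fibroblasts, put together with results of these data known, had 49 in the files and 37 measured. Of these, 32 were at least 2-fold higher in the Ly6a set and 0 lower, with a median log2 ratio of 1.92. Besides genes already given, it held Stmn4 (30 UMIs against 0, 9.16-fold higher with the Kera set placed at the floor of 3 UMIs). The list also held Anxa3 (120 against 15), Tnxb, or tenascin-X (145 against 24), and Cd248, or endosialin (197 against 47). Thy1 had 112 against 41 UMIs, and Gsn, gelsolin, stood at 1386 against 1293. Not every gene of that list was found, since Prg4, or lubricin, was at 0 UMIs in the members. A list of 32 genes of parenchymal fibroblasts had 17 measured, 2 at least 2-fold higher and 4 lower (median log2 -0.31). Itga8 (2 against 28 UMIs), Vwa1 (6 against 29), Enpp2 and Sparcl1 (33 against 82) were lower, and Gpx3, a secreted glutathione peroxidase, was higher (50 against 6). Tcf21, Wif1 and Npnt of that list were at 0 UMIs in the members.

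**Figure D4:**
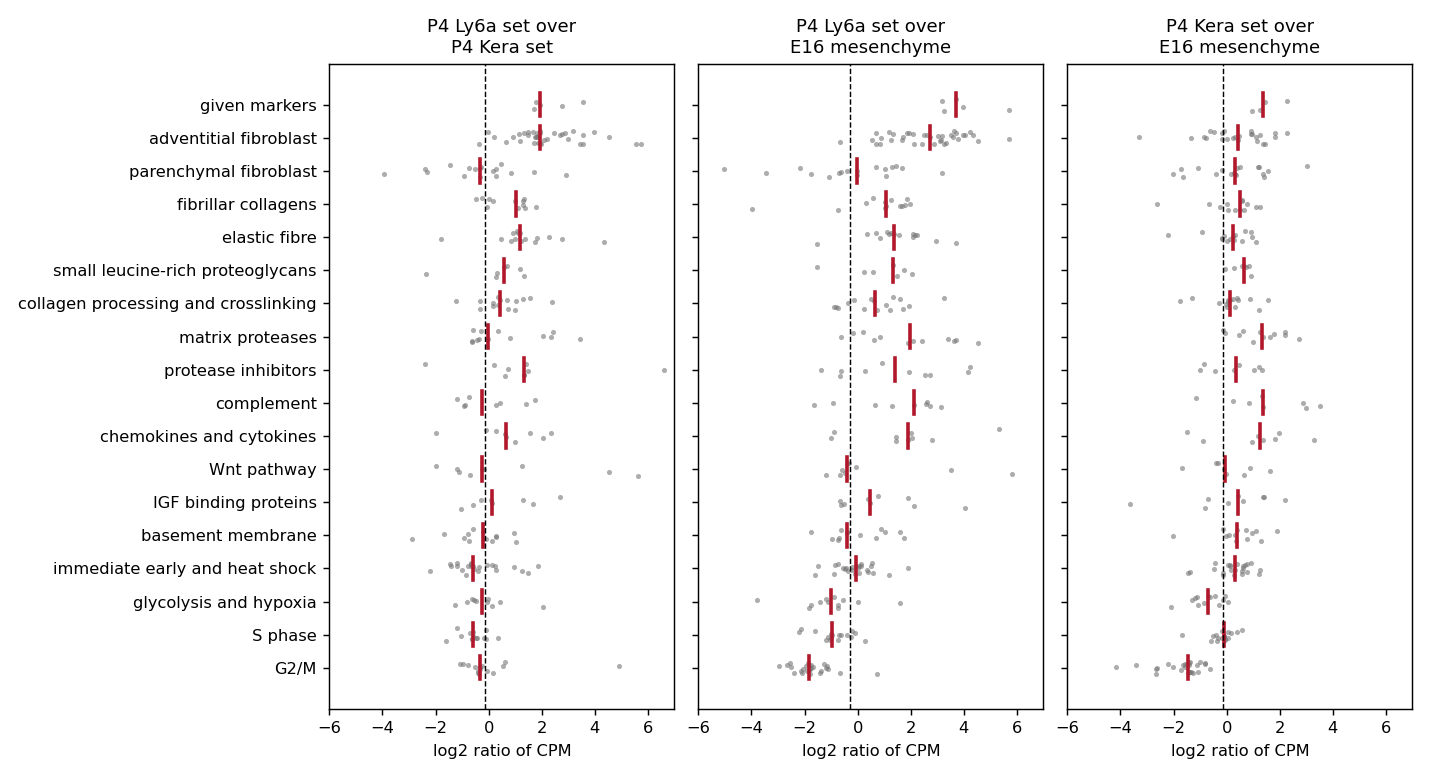
Each point is 1 measured gene of a list, placed by its log2 ratio of CPM in 3 comparisons, with a red bar at the list's median and a dashed line at the median of all measured genes. In the P4 comparison of the Ly6a set with the Kera set the adventitial list has a median of 1.92, elastic fibres 1.17 and fibrillar collagens 1.04; the E16 mesenchyme is shared by the middle and right panels.

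The members were not uniform. Over 517 genes with at least 100 UMIs, no cell above 20% of them and no other class above 3 times their level, the dispersion index, which sets a cell's squared deviation from the count its depth predicts over that count and is near 1 for counting noise alone, had a median of 1.59. It was 29.5 for Itm2a, a membrane protein found in 75 members, 28.6 for Mfap4, 26.5 for Col3a1, 22.8 for Cdkn1c, a cell cycle inhibitor, and 20.0 for Mfap5. Mfap4, detected in 43 members with 424 UMIs, and Itm2a, found in nearly all with 2307 UMIs, had close values by this measure. For the same relative spread the index rises with a gene's UMIs, so genes of unlike abundance cannot be ranked by it. Mfap4 was looked at further after its values were seen. The 15 members with at most 1 Ly6a UMI held 285 of its 424 UMIs (4602 CPM, 11 cells with a UMI), and the other 63 members held 139 (402 CPM, 32 cells with a UMI). The level of Mfap4 in the set thus came mostly from members with little or no Ly6a RNA, and Ly6a is a rule gene.

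Pi16 divided the members into 44 cells with a UMI and 34 without, at median depths of 5424.5 and 5053 UMIs. This division uses a rule gene, and a cell without a UMI may still express Pi16. Of 2206 genes measured, 130 (5.89%) were at least 2-fold higher in cells with Pi16 and 122 (5.53%) at least 2-fold lower. Without the top cell of each gene in each group, 97 rather than 252 genes were 2-fold apart. Akr1c18 had 107 UMIs in cells with Pi16 and 10 in cells without, and 16 of the 17 cells with an Akr1c18 UMI also had Pi16. Ccl7 had 451 against 40 UMIs, 8.13-fold higher (5.88 to 11.5), Anxa3, an annexin, 102 against 18, and Fbn1 313 against 81, 2.79-fold higher. Igfbp5 (107 against 20), Gpx3 (43 against 7) and Krtdap, an epidermal secreted protein (82 against 17), were on the same side. In the other direction, Mfap4 had 124 UMIs in cells with Pi16 and 300 UMIs in cells without. Sfrp4 had 30 against 77, Olfml2b 37 against 73, Bgn, or biglycan, 74 against 169, and Igfbp7 258 against 442. Genes that set the Ly6a set apart from the Kera set thus lay on both sides of the Pi16 division, with Akr1c18, Ccl7 and Anxa3 on one and Mfap4, Sfrp4 and Olfml2b on the other. Of 12 fibrillar collagen genes measured, 0 were 2-fold apart by Pi16 (11.4% of all 2206 genes were), with a median log2 ratio of -0.05.

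**Figure D5:**
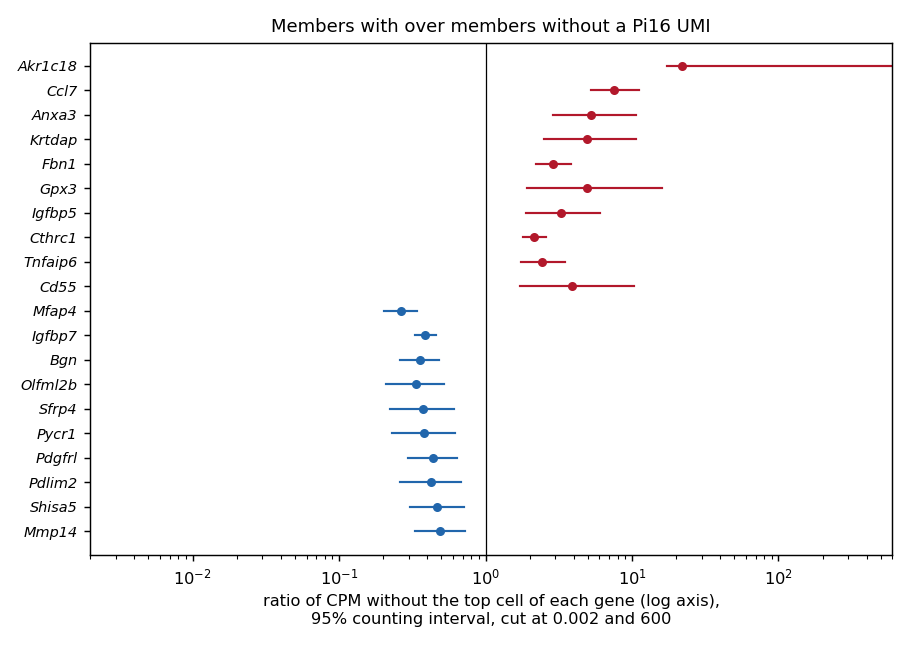
Ratio of CPM in the 44 members with a Pi16 UMI over the 34 members without, on a log axis with 95% counting intervals, for 10 genes on each side, each without its top cell in each group; a group at 0 UMIs is placed at the floor of 3 UMIs. Akr1c18, Ccl7 and Anxa3 lie furthest to the right and Mfap4 furthest to the left.

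At E16 the same rule found 6 cells on the Ly6a side, 81 on the Kera side and 10 with equal UMIs, so the Ly6a side was 6.19% of E16 mesenchyme (2.30 to 13.0) and 42.6% of P4 mesenchyme. These intervals do not overlap, but they cover the counting of cells in 1 library each and not the spread between glands, and the 2 libraries differ in depth. Dpt was present in all 6 cells, with 8, 3, 14, 3, 8 and 2 UMIs. Clec3b was also in all 6, with 14, 1, 14, 16, 19 and 11 UMIs, and Mfap5 in 5, with 36, 0, 10, 12, 22 and 11. Pi16 was in 4 of them (4, 0, 1, 0, 9 and 2 UMIs) and Ly6a in 3 (10, 0, 0, 0, 6 and 4). Kera and Lect1 were at 0 in all 6. Dpt is a rule gene, and 2 of the 6 cells were chosen by Dpt alone, so its presence follows in part from the rule, while Clec3b was not used. Of the 6 cells, 1, with 0 Mfap5 and 1 Clec3b UMI, carried Col15a1.

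Within E16, the Ly6a side was set against the Kera side, where 266 of 3364 measured genes (7.91%) were at least 2-fold higher and 672 (20.0%) at least 2-fold lower. Of the adventitial list 18 genes were measured there, 11 higher and 2 lower. Clec3b had 75 UMIs in the 6 cells against 9 in the 81, Mfap5 91 against 151, Cd34 27 against 36 and Sema3c, a semaphorin, 16 against 17. The 2 lower genes were Timp3 (2 against 112 UMIs) and Emilin2 (2 against 85).

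Summed, the 6 E16 cells held 30618 UMIs, so that 3 UMIs equal 98.0 CPM. Clec3b stood at 2449.5 CPM in them, 2214 in the P4 members and 143 in all E16 mesenchyme. Cthrc1 stood at 2515 CPM in the 6 cells, 1834 in the P4 members and 239 in all E16 mesenchyme. Cd34 stood at 882, 886 and 110.0 CPM. The P4 over E16 ratio on the Ly6a side was 0.90 for Clec3b (0.71 to 1.16), 1.01 for Cd34 (0.68 to 1.55) and 0.73 for Cthrc1 (0.58 to 0.93). The counting intervals of Clec3b and Cd34 included 1. Ly6a itself stood at 653 CPM against 2133 in the P4 members, a P4 over E16 ratio of 3.27 (2.10 to 5.37), and Ly6c1 at 163 against 567 CPM (3.47, 1.47 to 10.8). Ccl7 was at 0 UMIs in the 6 cells, and 12.3-fold higher in the P4 members with the 6 cells placed at the floor of 3 UMIs. Mfap4 went the other way, at 1959.6 CPM in the 6 cells and 1041 in the P4 members.

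Against all 97 E16 mesenchyme cells, which are mostly of the Kera side, stage, library and the mix of sides cannot be told apart. Of 4797 genes measured, 399 (8.32%) were at least 2-fold higher in the P4 Ly6a set and 920 (19.2%) at least 2-fold lower, with a median log2 ratio of -0.30. The adventitial list had 37 measured, 31 higher and 0 lower (median log2 2.73). Against the 6 E16 cells of the Ly6a side, where 17.5% of 2338 measured genes were at least 2-fold higher and 8.38% lower, 36 genes of the list were measured, 10 higher and 1 lower (median log2 0.56, against 0.12 over all genes). The P4 Kera set over E16 mesenchyme, with 5.50% of 4798 genes higher and 12.6% lower, had 25 genes of the list measured, 8 higher and 2 lower. These 3 comparisons share libraries and cells and are not independent.

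Genes of the members that stood highest over E16 mesenchyme included several with products outside the cell or on its surface. Ccl7 had 491 UMIs against 19, 40.4-fold higher, Ly6c1 231 against 7, Clec3b 902 against 91 (15.5-fold) and Mfap5 2234 against 271 (12.9-fold). Htra3 had 307 against 37 UMIs, Mmp23 134 against 9, Fndc1 103 against 8, Pamr1 86 against 8, Vit, or vitrin, 60 against 4, and Nnmt, nicotinamide N-methyltransferase, 101 against 10. Against the 6 cells alone, Mfap5 had a ratio of 1.85 (1.50 to 2.30), Htra3 1.92 (1.09 to 3.76) and Mmp23 2.52 (0.96 to 9.38). For Mfap5, Htra3 and Mmp23 these ratios lay below those against the E16 mesenchyme as a whole. The secretory transcript Dcpp2 was also high by this measure, with 113 UMIs in the members and 0 at E16, but it stood at 277 CPM in the members, 287 in the Kera set, 337 in macrophage-marker cells and 273 in endothelial-marker cells, that is, at a like level in each of these sets.

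Matrix, complement and chemokine genes were higher in the members than in E16 mesenchyme. Elastic fibre genes were higher for 11 of 15 measured and lower for 1 (median log2 1.36), fibrillar collagens for 9 of 13 with 1 lower (1.06), and matrix proteases for 7 of 12 with 0 lower (1.99). Efemp1 had 314 against 63 UMIs, Fn1, fibronectin, 530 against 178, and Col1a2 2976 against 1270. Col11a1, a cartilage-type fibrillar collagen, was lower with 3 against 73. Against the 6 E16 cells, elastic fibre genes were higher for 3 of 14 and lower for 2 (0.45), and fibrillar collagens higher for 1 of 12 (0.43). Complement genes were higher for 6 of 9 measured and lower for 1 (2.12), with C1ra at 51 against 9 UMIs, and chemokines and cytokines for 7 of 9 with 1 lower (1.89), with Ccl2 at 207 against 46. In the P4 Kera set over E16 mesenchyme these 2 lists were higher for 5 of 8 and 5 of 8, each with 1 lower. Both P4 sets were therefore above E16 mesenchyme for complement and chemokine genes. Against the 6 E16 cells, complement genes were higher in the members for 3 of 6 measured and lower for 0. Chemokines and cytokines were higher for 5 of 9 and lower for 1 (median log2 1.31), and matrix proteases higher for 3 of 12 and lower for 0 (0.30). In this comparison the members held 407316 UMIs and the 6 cells 30618, so genes were measured mostly through the members. Over all genes measured there, 17.5% were at least 2-fold higher and 8.38% lower. Of 19 chemokines and cytokines, 13 had 0 UMIs in the 6 cells, where a ratio rests on the floor of 3 UMIs. These counts therefore do not show that the lists as a whole were higher in the members.

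Cell division genes were lower in the members than in E16 mesenchyme as a whole, while fewer could be measured against the 6 E16 cells of the Ly6a side. Of 26 genes of the G2/M phases, all 26 were measured, 24 were at least 2-fold lower than in E16 mesenchyme and 0 higher (median log2 -1.82). Top2a, which untangles DNA for mitosis, had 14 UMIs in the members against 172, 7.86-fold higher at E16, Cenpf 8 against 80 and Ccna2 7 against 64. S phase genes were lower for 7 of 17 (median log2 -0.97), with Rrm2 at 36 against 249 UMIs. Against the 6 E16 cells, 10 G2/M genes were measured, 0 higher and 1 lower (median log2 -0.30), and 7 S phase genes, 1 higher and 2 lower (0.07). Each of those genes had at most 8 UMIs in the 6 cells. The P4 Kera set gave 23 of 26 G2/M genes and 1 of 17 S phase genes lower than E16 mesenchyme. Cells with UMIs of at least 3 G2/M genes were counted after thinning to 2191 UMIs. They were 11 of 72 members (15.3%, 7.88 to 25.7; unthinned 32.1% of 78), 12 of 79 Kera cells (15.2%, 8.10 to 25.03; unthinned 21.6% of 88) and 41 of 96 E16 mesenchyme cells (42.7%, 32.7 to 53.2; unthinned 60.8% of 97). At this depth the intervals of the 2 P4 sets overlapped, and both lay below that of E16. At 1000 UMIs a cell they did not all keep this order. The members were then at 13.0% (6.41 to 22.6), the Kera set at 5.68% (1.87 to 12.8) and E16 mesenchyme at 24.7% (16.5 to 34.5), so that the intervals of members and E16 overlapped.

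Other genes lower than in E16 mesenchyme included Sostdc1, a secreted BMP and Wnt antagonist, with 0 UMIs in the members against 135. With the members placed at the floor of 3 UMIs, Sostdc1 was 28.8-fold lower. Stra6, a retinol receptor, had 0 against 46 UMIs, Crabp1 20 against 237, Col26a1 9 against 111, and Mest, an imprinted gene, 139 against 899. Glycolysis and hypoxia genes were lower for 6 of 12 measured and higher for 1 (median log2 -1.01), with Ldha at 166 against 699 UMIs, Pfkl, a phosphofructokinase, at 4 against 86 and Slc16a3, a lactate transporter, at 8 against 44. In the P4 Kera set 5 of 13 such genes were lower than at E16 and 0 higher, so that this difference, too, was seen in both P4 sets. Against the 6 E16 cells of the Ly6a side, 0 of 9 measured genes of this list were 2-fold apart. Genes with few UMIs in the members were mostly left out there too. The whole list summed to 2342 CPM in the members and 2874 in the 6 cells.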

How the data were processed

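Single-cell RNA of 2 libraries was analysed, 1 per stage. The authors deposited UMI counts per gene and barcode. Per the submitters' processing notes these came from Cell Ranger on mm10, and their versions were not stated. The labels name both 10X Genomics and Drop-seq. No UMI of a mitochondrial gene (0) was in the deposited counts, so damaged cells could not be judged by them.

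Counts were summed over the cells of a set and scaled to CPM in Python 3.11.15 with numpy 2.4.6, scipy 1.17.1 and pandas 2.3.3. Ratios carry exact conditional intervals, shares exact binomial (Clopper-Pearson) intervals at 95%, and a set at 0 was taken at a floor of 3 UMIs over the set. No p-value was computed, since each stage is 1 library and cells are not replicates. The ratio code was tested on simulated UMI sums, and the rule that chose the cells was not tested on simulated cells. Gene coordinates are from GENCODE M21 (80 of 80 identifiers matched) on GRCm38, the assembly also named mm10.

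The rule for named genes took those with at least 30 UMIs in the higher set, a UMI in at least 10% of its cells and no other class above 3 times its level, ranked by the interval bound nearest 1, plus all rule genes, given markers and the outer genes of each list. A gene that this rule names is not reported here. Mitochondrial, ribosomal, haemoglobin, sex-specific and provisional genes were left out. The members, the 44 gene lists and the tests were chosen with earlier results of these data known. The ranking without the top cell, the dispersion index, the thinned shares of marker-bearing cells and the split of Mfap4 by Ly6a were added after the values were seen. Alternatives tried were other cell filters, margins, gene minimums and thinning to 2000 UMIs.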

Additional observations from a re-analysis of the deposited data

How the results depend on the processing

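Each stage is 1 library, with 183 mesenchyme cells at P4 and 97 at E16, and genes under 30 UMIs over both sets were not judged. No paired analysis was possible because each stage is 1 library. The number of members stayed between 63 and 77 under other filters, margins and rule genes, against 78. Over 137 gene results, 1401 of 1557 values under alternatives were counted as unchanged, and over 67 list results 789 of 815 were. A higher gene minimum was among the alternatives and cannot change a gene's ratio, so part of the first count was fixed beforehand. The filter on the mesenchyme sum kept 77 of the 78 members and could change little. These counts therefore do not measure how stable the results are.

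Counts of genes at least 2-fold apart depend on depth and on single cells. Main counts were 611 (Ly6a over Kera set in P4), 938 (the same in E16), 1319 (P4 Ly6a set over E16 mesenchyme) and 252 (by Pi16). Thinned to 2000 UMIs a cell they were 371, 372, 516 and 114, and at a minimum of 100 UMIs 188, 312, 393 and 54. Against the E16 cells of the Ly6a side only, the third was 604. Without the top cell of each gene, chosen after seeing the data, the first was 388 and the last 97. The share of cells with G2/M genes at 1000 UMIs was 13.0% in the members, 5.68% in the Kera set and 24.7% in E16 mesenchyme, and with at least 2 genes it was 26.6% in the Kera set.

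Reversed log2 ratios were few. Against the E16 Ly6a side only, Dcpp3 was at -0.15, Clec3b at -0.15 and Kera at 1.37. Dcpp3 had 36 UMIs in the members and 0 in those E16 cells, and Kera 103 and 0. Their values therefore rest on the floor of 3 UMIs, and Dcpp3 was not measured as lower in the members. Hnrnph3 by Pi16 was at 1.27 with a margin of 2 UMIs and 1.11 without its top cells. In the E16 sets, Pfdn4 was at -0.74 without the deepest 10% of cells and -0.84 without its top cells, and Hopx at 0.092 after thinning. Hopx then had 0 UMIs on the Ly6a side and 38 on the Kera side, so its value also rests on the floor. The cause of the other reversals was not tested.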

Other observations

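Fat-cell genes and tendon genes were looked at as further lists in the members. Of 18 adipogenic and lipid genes 9 were measured, with 0 at least 2-fold higher in the Ly6a set than in the Kera set and 1 lower, Cebpb, a transcription factor of early adipogenesis (219 against 475 UMIs). Lpl, lipoprotein lipase, had 319 against 264 UMIs, and it was 9.06-fold higher in the members than in E16 mesenchyme (55 UMIs). In that comparison the list had 13 measured, 3 higher and 4 lower (median log2 -0.23). Against the 6 E16 cells of the Ly6a side it had 10 measured, 0 higher and 6 lower (-1.27), among them Apoe, apolipoprotein E, with 156 UMIs in the members and 89 in the 6 cells, and Dlk1, which marks preadipocytes and other immature cells. Lpl stood 1.71-fold higher in the members than in those 6 cells (1.01 to 3.17). In the 2 P4 sets Dlk1 had 2415 against 1536 UMIs. Adipoq, Plin1 and Cfd, genes of mature fat cells, were at 0 UMIs in the members.

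Of 19 matricellular and tendon-like genes 5 were measured. Postn and Aspn were at least 2-fold higher in the Ly6a set, Thbs2, a thrombospondin, had 90 against 48 UMIs and Matn2, a matrilin, 284 against 142. Scx and Mkx, transcription factors of tendon, and Comp, Chad and Acan of cartilage and tendon matrix were at 0 UMIs in the members. In the Ly6 family, Ly6e had 77 against 20 UMIs, and Ly6d, Psca and Ly6g were at 0 in the members.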
